A study of Mus musculus with 10 samples.

Results

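The genes described are those of cholesterol synthesis and its sterol-controlled regulation, uptake, storage and export. They were chosen by symbol from the mevalonate and sterol pathways, but with earlier results of these data known. Of 30 named genes, 28 had a probe set with exactly 1 annotated symbol, out of 19938 genes tested. Acat2 and Soat1 were not analysed here. Each gene is given by its brightest such probe set over all 10 arrays.

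RNA came from sorted osteoblastic lineage cells (OBCs), which include osteoblasts and the cells that give rise to them, of 5 control and 5 BA mice of the C57BL/6 strain, with 1 array per mouse. BA mice carry Scl-tTA::TRE-BCR/ABL. Control sequences of the Scl gene, which are active in blood stem and progenitor cells, drive a transactivator. The transactivator switches on the leukaemia fusion gene BCR/ABL once doxycycline is removed. The controls were matched for age, and their genotype is given only as control. Mice of both groups lost doxycycline at 5 weeks of age, a step meant to start a myeloproliferative neoplasm in BA mice, and bones were taken 5 to 6 weeks later, when the BA mice are described as diseased. Cells of the inner bone surface were freed with collagenase and sorted by CD51, CD45, Sca-1, CD31 and a mix of blood lineage antibodies; RNA of 500 to 2300 cells was then amplified for each Affymetrix Gene ST 1.0 array.

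Cells build cholesterol from acetyl-CoA through mevalonate, isoprenoid diphosphates, squalene and lanosterol. When sterols in the endoplasmic reticulum run low, SCAP escorts the transcription factor SREBP2 to the Golgi, where it is cut and released to switch on the enzymes of this route. INSIG proteins hold SCAP back when sterols are plentiful, and the LXR receptors, which sense oxysterols, switch on exporters such as ABCA1. In bone the pathway is best known through the nitrogen bisphosphonates, which block farnesyl diphosphate synthase.

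Promoters of 5 enzymes are shown because these enzymes had the smallest p-values of the synthesis route together with Sqle, and SREBP2 binds such promoters with the CCAAT-binding factor NF-Y. RefSeq promoter windows (assembly GRCm38.p6, 250 bases before to 50 after the gene start) were found for 22 of the 28 genes. The last 180 bases before the start are printed 5′ to 3′ on the gene's strand. Capitals mark matches to TCACNCCA, the core of the classical sterol regulatory element, and to CCAAT, on either strand. The stretches lie at chr13:119690171-119690350 on the forward strand (Hmgcs1), chr5:4104698-4104877 on the reverse strand (Cyp51), chrX:72918341-72918520 on the forward strand (Nsdhl), chr1:169969206-169969385 on the reverse strand (Hsd17b7) and chr9:42264301-42264480 on the reverse strand (Sc5d).
Hmgcs1: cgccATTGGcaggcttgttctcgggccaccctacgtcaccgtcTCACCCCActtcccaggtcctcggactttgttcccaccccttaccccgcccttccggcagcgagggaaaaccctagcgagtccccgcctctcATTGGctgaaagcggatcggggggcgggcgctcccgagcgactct
Cyp51: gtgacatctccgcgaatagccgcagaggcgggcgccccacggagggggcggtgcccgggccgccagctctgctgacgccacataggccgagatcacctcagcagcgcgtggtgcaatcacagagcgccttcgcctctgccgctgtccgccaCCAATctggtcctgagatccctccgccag
Nsdhl: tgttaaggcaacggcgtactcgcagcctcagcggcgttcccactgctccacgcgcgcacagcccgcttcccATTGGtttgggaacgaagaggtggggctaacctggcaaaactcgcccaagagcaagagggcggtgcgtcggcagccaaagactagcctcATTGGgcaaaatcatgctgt
Hsd17b7: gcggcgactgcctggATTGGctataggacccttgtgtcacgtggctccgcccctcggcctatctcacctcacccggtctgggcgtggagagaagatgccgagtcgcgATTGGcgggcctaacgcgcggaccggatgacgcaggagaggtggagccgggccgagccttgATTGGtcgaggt
Sc5d: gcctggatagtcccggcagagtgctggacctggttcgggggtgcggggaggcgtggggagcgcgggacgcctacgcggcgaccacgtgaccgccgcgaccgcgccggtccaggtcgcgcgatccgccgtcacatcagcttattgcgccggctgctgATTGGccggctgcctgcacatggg
The sterol element core stood once in the Hmgcs1 stretch, at positions -137 to -130, between CCAAT matches on the opposite strand at -176 to -172 and -45 to -41. Hsd17b7 held 3 CCAAT matches, Nsdhl 2, and Cyp51 and Sc5d 1 each. Over the full windows, 20 of the 22 genes (90.9%) held CCAAT in at least 1 window, against 41.7% of the 15614 array genes with a window. The core TCACNCCA was found for 3 of the 22 (13.6%; Hmgcs1, Msmo1 and Srebf2), against 4.60% of the same genes. A gene with several windows has more chances of a match. Counted by window, CCAAT stood in 70% of the 30 member windows, against 37.4% of all 32851 windows. For the core these shares were 10% and 4.36%. The 2 patterns can overlap at CCA. These matches describe letters and were not tested for binding.

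The comparison of BA with control cells asks how this bone fraction differs in the disease model. Values are log2 expression as deposited, and differences are BA minus control. No member passed the threshold of 0.05 after adjustment over all genes (smallest adjusted p = 0.281, limma), so none is called higher or lower. In the same fit 1 of 19938 genes passed (0.00502%). At an unadjusted p under 0.05, 9 of the 28 members were higher and 1 was lower, that is 32.1% and 3.57%, against 4.13% and 5.27% of all genes tested (9.40% in either direction). Of the 26 members with a mean level above the median of all genes, 9 were higher and 1 lower at that p, against 6.96% and 4.39% of all such genes.

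In BA cells 21 of the 28 members had the higher mean, against 37.9% of all genes tested (49.8% of those above the median level). The median difference was 0.31 over the members and -0.06 over all genes. Among the steps of synthesis, the enzymes after lanosterol had the highest median (0.61 over 8 genes), followed by squalene to lanosterol (0.32 over 3). That 0.32 is the difference of the middle gene, Fdft1, which turned to -0.185 without control replicate 3. The steps were not compared by a test. The mevalonate enzymes had a median of 0.10 over 5 genes and the prenyl diphosphate synthases -0.06 over 2. The plot of differences by step shows these groups. Interval widths come from limma, which draws each gene's spread between mice toward a value shared by all genes.

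**Figure D1:**
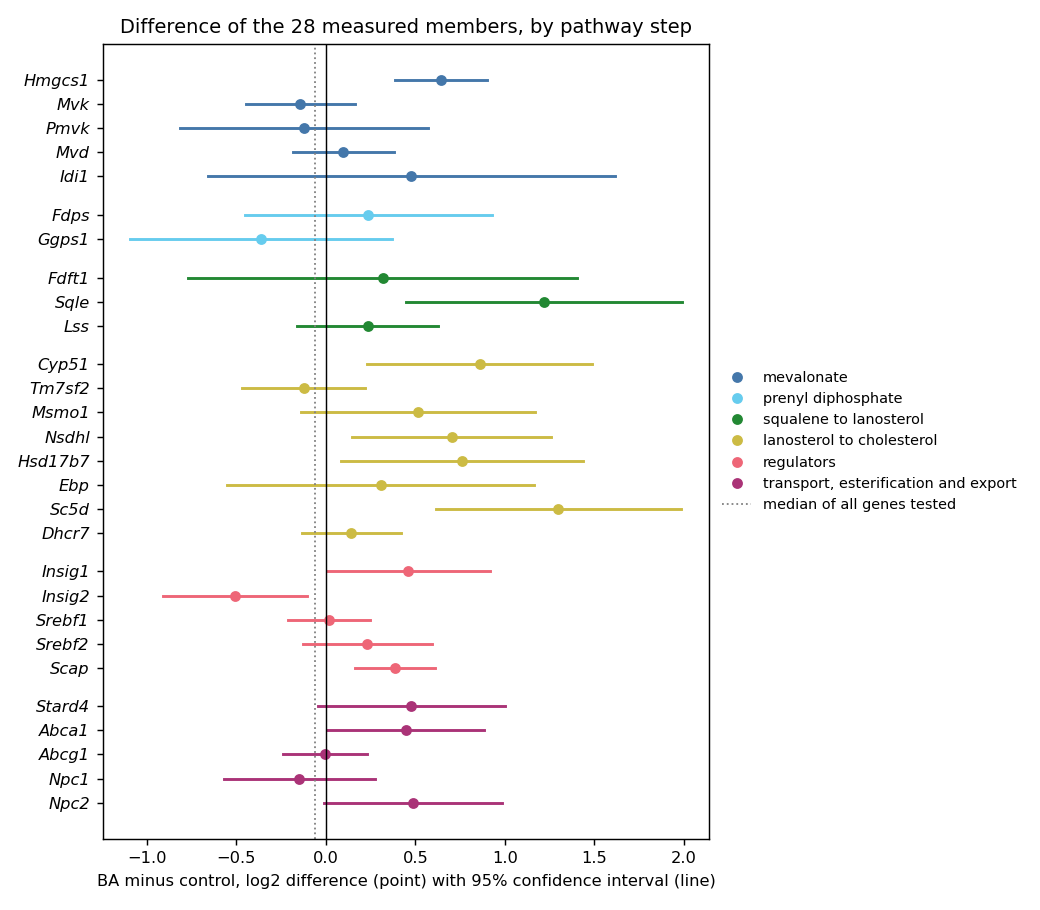
BA minus control difference (log2) for the 28 measured genes with its 95% confidence interval, coloured by pathway step; the dotted line is the median of all genes tested, -0.06. The intervals of 9 genes lie above 0 and that of Insig2 below 0, before any adjustment for the number of genes tested.

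**Figure D2:**
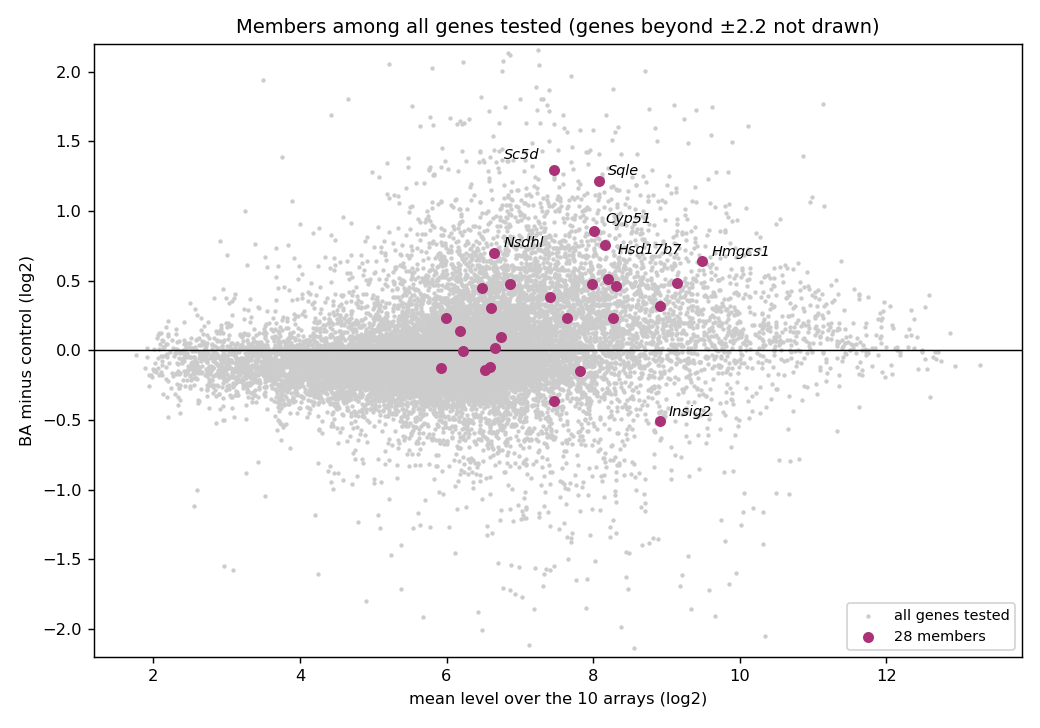
Mean level over 10 arrays against BA minus control difference, both log2, for all genes tested (grey) and the 28 members (purple), with 18 genes beyond ±2.2 not drawn. The members lie mostly in the brighter part of the range, with Sc5d and Sqle highest in difference at 1.30 and 1.22.

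Hmgcs1 encodes the cytosolic HMG-CoA synthase, an early enzyme of the mevalonate route. Hmgcs1 measured 9.17, 8.87, 9.28, 9.35 and 9.17 in control replicates 1 to 5 and 9.60, 9.82, 9.74, 9.99 and 9.90 in BA replicates 1 to 5. All 5 BA values lay above all 5 control values, a pattern shown by 0.567% of all genes tested. The means were 9.17 ± 0.18 in control and 9.81 ± 0.15 in BA cells (SD, n = 5 each), a difference of 0.64 ± 0.12 (SE, n = 5 per group, unadjusted p = 0.000220, adjusted p = 0.281, limma), or 1.56-fold. This was the smallest p of the 28 members, and the unadjusted p stayed under 0.05 under each of the 21 alternatives to the main analysis that were tried for it, with differences from 0.45 to 0.69.

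For the later mevalonate enzymes the groups overlapped. Mevalonate kinase (Mvk) differed by -0.14 ± 0.14, phosphomevalonate kinase (Pmvk) by -0.12 ± 0.31 and mevalonate diphosphate decarboxylase (Mvd) by 0.10 ± 0.13 (SE, n = 5 per group). The 95% intervals were -0.45 to 0.16 for Mvk, -0.82 to 0.57 for Pmvk and -0.19 to 0.38 for Mvd, and whether these enzymes differ from Hmgcs1 was not tested. Idi1 encodes the isomerase that makes dimethylallyl diphosphate. Idi1 measured 5.75, 7.49, 6.50, 7.48 and 5.93 in control replicates 1 to 5 and 5.46, 7.28, 7.26, 8.16 and 7.38 in BA replicates 1 to 5. The groups overlapped widely, with both the lowest and the highest of the 10 values among BA arrays, and the difference was 0.48 ± 0.51. Leaving out single arrays moved it between 0.215 (without BA replicate 4) and 0.89 (without BA replicate 1), with 0.258 without control replicate 1 and 0.303 without control replicate 5. A second Idi1 probe set differed by 0.51 and ranked the arrays alike at its ends, with BA replicate 1 lowest at 5.10 and BA replicate 4 highest at 8.45.

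The prenyl diphosphate synthases feed protein prenylation and other branches as well as sterols. Fdps, the target of nitrogen bisphosphonates, averaged 8.16 ± 0.74 in control and 8.39 ± 0.24 in BA cells (SD, n = 5 each). Control replicate 4 was the low array at 6.93, the other 4 controls reached 8.01 to 8.63, and without it the difference turned from 0.24 to -0.07. Ggps1, which makes geranylgeranyl diphosphate, averaged 7.65 ± 0.49 in control and 7.28 ± 0.66 in BA cells (SD, n = 5 each), with 3 BA arrays below every control array and 1 above. Its difference of -0.36 ran from -0.6135 (without BA replicate 3) to -0.2105 (without control replicate 1).

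Squalene synthase (Fdft1) commits farnesyl diphosphate to sterols. It averaged 8.75 ± 1.20 in control and 9.07 ± 0.28 in BA cells (SD, n = 5 each), and control replicate 3 stood alone at 6.75 while the other 9 arrays lay between 8.61 and 9.68. Without that array the difference turned from 0.32 to -0.185, and the second Fdft1 probe set was lowest there too, at 6.53. Squalene epoxidase (Sqle), a rate-limiting oxygen-dependent enzyme, showed the larger difference. Sqle measured 7.68, 8.11, 6.38, 7.83 and 7.36 in control replicates 1 to 5 and 8.90, 8.59, 9.39, 8.70 and 7.87 in BA replicates 1 to 5. In 4 of 5 BA arrays the value exceeded every control, and BA replicate 5 fell within the control range. The difference was 1.22 ± 0.35 (SE, n = 5 per group), or 2.33-fold (unadjusted p = 0.00539, adjusted p = 0.440, limma). Without control replicate 3, the lowest array, it was 0.945. Lanosterol synthase (Lss), the next enzyme, was dim and differed by 0.23 ± 0.18.

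The enzymes that turn lanosterol into cholesterol held 4 of the 6 synthesis genes with an unadjusted p under 0.05. Cyp51, the lanosterol 14-demethylase, averaged 7.59 ± 0.62 in control and 8.45 ± 0.33 in BA cells (SD, n = 5 each). Cyp51 measured 7.91, 7.78, 6.49, 7.82 and 7.93 in control replicates 1 to 5 and 7.96, 8.49, 8.79, 8.30 and 8.69 in BA replicates 1 to 5. All BA arrays lay above all controls, although BA replicate 1 exceeded control replicate 5 by little, and control replicate 3 was far below the rest. The difference was 0.86 ± 0.28 (SE; unadjusted p = 0.0121, adjusted p = 0.477, limma) and 0.59 without that control array.

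Nsdhl and Hsd17b7 act one after the other in the removal of the C4 methyl groups. Nsdhl measured 6.13, 6.29, 6.87, 6.02 and 6.20 in control replicates 1 to 5 and 7.35, 6.33, 7.56, 7.16 and 6.62 in BA replicates 1 to 5. For Nsdhl 3 BA arrays exceeded every control, and BA replicates 2 and 5 lay within the control range; the difference was 0.70 ± 0.25 (SE; unadjusted p = 0.0181, adjusted p = 0.484, limma). Hsd17b7 measured 7.06, 8.03, 7.01, 8.47 and 8.32 in control replicates 1 to 5 and 8.13, 8.65, 8.84, 8.70 and 8.37 in BA replicates 1 to 5. The controls spread widely for Hsd17b7, with replicates 1 and 3 low, and the difference was 0.76 ± 0.30 (SE; unadjusted p = 0.0307, adjusted p = 0.507, limma). Msmo1, the C4-methyl oxidase of the same complex, averaged 7.94 ± 0.66 in control and 8.45 ± 0.30 in BA cells (SD, n = 5 each), a difference of 0.51 ± 0.29, and its highest array was control replicate 5 at 8.98, without which the difference was 0.7715.

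Sc5d, the sterol C5-desaturase, had the largest difference of the 28 members. Sc5d measured 6.67, 7.40, 6.39, 7.19 and 6.44 in control replicates 1 to 5 and 7.65, 7.31, 8.78, 8.54 and 8.30 in BA replicates 1 to 5. BA replicates 3, 4 and 5 stood well above all controls, BA replicate 1 narrowly so, and BA replicate 2 within the control range. The difference was 1.30 ± 0.31 (SE, n = 5 per group), or 2.46-fold (unadjusted p = 0.00169, adjusted p = 0.384, limma). Leaving out any single array gave 1.13 to 1.50. Of the remaining late enzymes, the isomerase Ebp differed by 0.31 ± 0.39, the last reductase Dhcr7 by 0.14 ± 0.13 and the C14-reductase Tm7sf2 by -0.12 ± 0.15. Without single arrays Ebp ran from 0.0495 (without BA replicate 5) to 0.522 (without BA replicate 4). Tm7sf2 and Lss were the dimmest members, below the median level of all genes, and whether differences are compressed there was not tested.

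**Figure D3:**
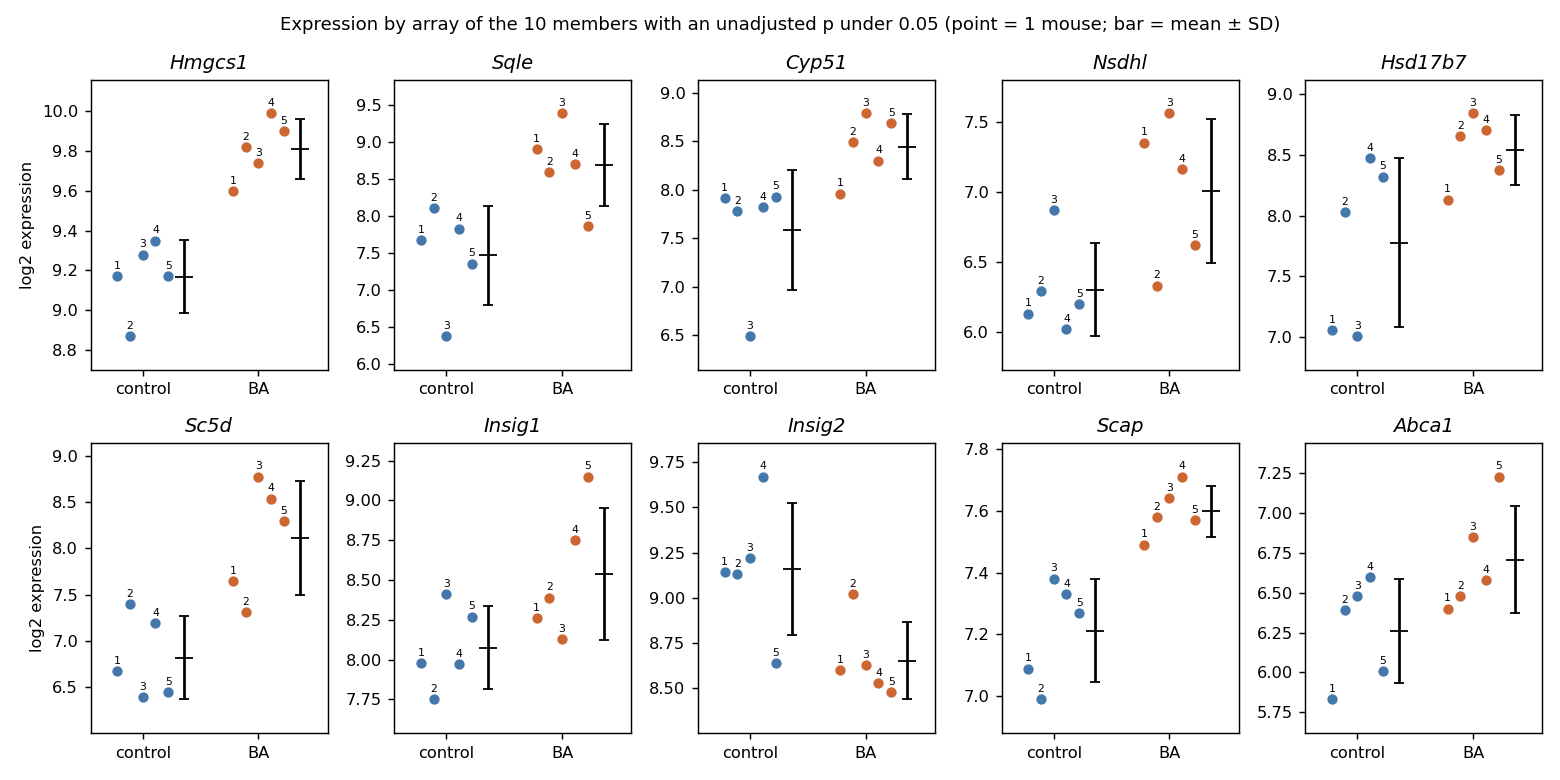
Log2 expression in each mouse (numbered points) for the 10 members with an unadjusted p under 0.05, with the mean ± SD of 5 mice beside each group; each panel has its own scale. Hmgcs1, Cyp51 and Scap show all 5 BA values above all 5 controls, and Insig2 is the gene with a lower BA mean.

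Among the regulators, the 2 INSIG genes lay on opposite sides. INSIG1 is itself an SREBP target, while INSIG2 is made largely independently of SREBP. Insig1 measured 7.98, 7.75, 8.41, 7.97 and 8.27 in control replicates 1 to 5 and 8.26, 8.39, 8.13, 8.75 and 9.15 in BA replicates 1 to 5. The BA values overlapped the controls, with BA replicates 4 and 5 above all of them, and the difference was 0.46 ± 0.20 (SE; unadjusted p = 0.0476, adjusted p = 0.529, limma). Without BA replicate 5 it was 0.31. Insig2 measured 9.14, 9.13, 9.22, 9.67 and 8.64 in control replicates 1 to 5 and 8.60, 9.02, 8.63, 8.53 and 8.48 in BA replicates 1 to 5. For Insig2 4 of 5 BA arrays lay below every control, while BA replicate 2 did not, and the difference was -0.51 ± 0.18 (SE; unadjusted p = 0.0177, adjusted p = 0.484, limma). The difference between the 2 genes' contrasts was not tested.

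Scap, the sterol sensor that escorts SREBPs, varied least of the members within groups (SD 0.13). Scap measured 7.09, 6.99, 7.38, 7.33 and 7.27 in control replicates 1 to 5 and 7.49, 7.58, 7.64, 7.71 and 7.57 in BA replicates 1 to 5. Every BA value exceeded every control, with a small difference of 0.39 ± 0.10 (SE), or 1.31-fold (unadjusted p = 0.00304, adjusted p = 0.384, limma). Srebf2 measured 7.45, 7.48, 7.57, 7.71 and 7.42 in control replicates 1 to 5 and 7.29, 8.08, 8.04, 7.90 and 7.48 in BA replicates 1 to 5. Srebf2, which encodes SREBP2, had 3 BA arrays above all controls and 1 below, and differed by 0.23 ± 0.16. Srebf1 measured 6.70, 6.50, 6.83, 6.62 and 6.61 in control replicates 1 to 5 and 6.67, 6.92, 6.54, 6.61 and 6.60 in BA replicates 1 to 5. Srebf1, which encodes the lipogenic SREBP1 forms, differed by 0.02 ± 0.10, with a 95% interval of -0.21 to 0.24. These levels are of RNA, and SREBP activity depends on cleavage of the protein, which arrays do not measure.

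The 5 measured genes of sterol movement and export had a median difference of 0.45, with 3 higher and 2 lower means. All 5 lay above the median level, where 49.8% of all genes had the higher mean. Abca1, the LXR-induced exporter to apolipoprotein A-I, had its highest value in BA replicate 5. Abca1 measured 5.83, 6.39, 6.48, 6.60 and 6.01 in control replicates 1 to 5 and 6.40, 6.48, 6.85, 6.58 and 7.23 in BA replicates 1 to 5. The difference was 0.45 ± 0.20 (SE; unadjusted p = 0.0466, adjusted p = 0.526, limma) and 0.32 without that array. Abcg1 measured 6.36, 6.15, 6.16, 6.34 and 6.11 in control replicates 1 to 5 and 6.35, 6.40, 6.15, 6.20 and 5.99 in BA replicates 1 to 5. Abcg1, another LXR-induced exporter, differed by -0.01 ± 0.11, with a 95% interval of -0.24 to 0.23 and a sign that depended on the setting. The LXR-alpha gene Nr1h3, not a member, averaged 5.98 ± 0.10 in control and 5.74 ± 0.15 in BA cells (SD, n = 5 each), with all BA arrays below all controls (1.10% of all genes tested). Its unadjusted p was 0.0322 and its adjusted p 0.507 (limma). Nr1h3 was dim, at the 39.7th percentile of mean level, and Abcg1 lay near the middle, at the 52.8th.

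Npc2 and Npc1 hand cholesterol out of the lysosome. Npc2 measured 8.94, 8.50, 9.12, 9.21 and 8.71 in control replicates 1 to 5 and 10.02, 8.95, 8.95, 9.62 and 9.37 in BA replicates 1 to 5. Npc2 had 3 BA arrays above all controls and differed by 0.49 ± 0.22 (unadjusted p = 0.0547, adjusted p = 0.533, limma). Npc1 differed by -0.15 ± 0.19, with its highest array control replicate 1 at 8.52. Stard4, a soluble sterol carrier and SREBP2 target, averaged 7.75 ± 0.43 in control and 8.22 ± 0.38 in BA cells (SD, n = 5 each), a difference of 0.48 ± 0.24 with overlapping groups.

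**Figure D4:**
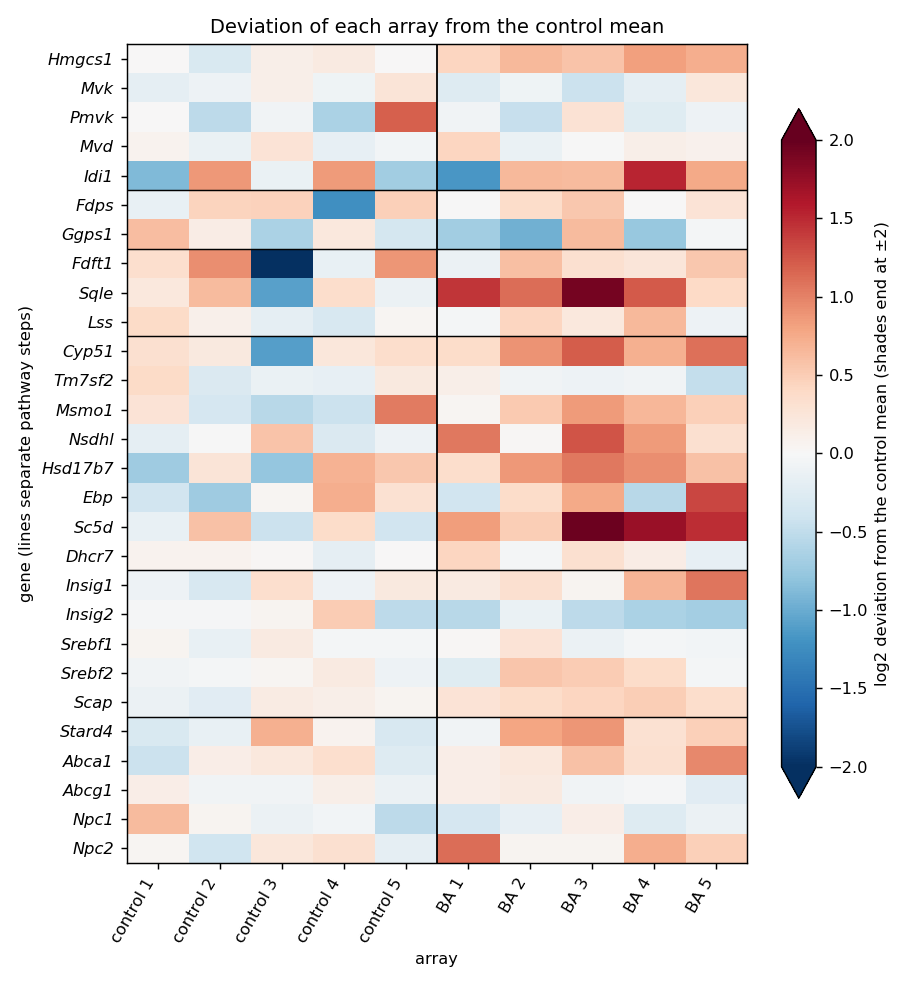
Deviation of each array from the control mean (log2, colour) for the 28 members in pathway order, controls left of the vertical line and BA right; shades end at ±2. Sqle and Sc5d lie above the control mean on all 5 BA arrays. So do Hmgcs1, Cyp51, Msmo1, Nsdhl, Hsd17b7, Insig1, Scap, Abca1 and Npc2, at times by little (Nsdhl 0.028 on BA replicate 2). Fdft1 is darkest blue on control replicate 3, at -2.004.

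The arrays differed in how much of the route was high. Over the 18 measured enzymes the mean level ran from 6.84 to 7.35 in control and from 7.30 to 7.81 in BA arrays, so the groups overlapped narrowly. BA replicate 3 was the highest, with 15 of 18 enzymes above their control mean and a median deviation of 0.60. BA replicate 1 was the lowest BA array, with 10 of 18 and 0.075, close to control replicates 1 and 5 with 11 and 12 of 18. Control replicate 3, at 7 of 18, was the lowest array. The within-group SD of the members had a median of 0.37, from 0.13 for Scap to 0.91 for Idi1, against 0.33 for genes above the median level.

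Whether the enzymes varied with Insig1 among mice of a group was examined over the 10 arrays after removing group means. Of 18 enzymes, 8 had a Pearson's r above 0, and the median r was -0.17, against -0.03 over all genes. P-values are exact permutation values over arrangements within groups, adjusted over the 18 enzymes. Sqle varied opposite to Insig1 (r = -0.87, exact p = 0.000347, adjusted p = 0.00625; rho = -0.87, exact p = 0.00181, adjusted p = 0.0325). Without BA replicate 5 and control replicate 3, the arrays farthest from the Insig1 median, r was -0.78. Without BA replicate 5 alone the exact adjusted p was 0.125 at r = -0.83. Mvk varied in the same direction as Insig1 without passing (r = 0.85, exact p = 0.00604, adjusted p = 0.0544; rho = 0.77, exact p = 0.0222, adjusted p = 0.199), with r = 0.70 without those 2 arrays. For Hmgcs1 r was 0.63 (exact p = 0.0564, adjusted p = 0.338) and rho 0.67 (exact p = 0.0453, adjusted p = 0.272), with r = 0.66 without them. The arrays share their normalization and amplification steps, and the part of these in the relations was not tested.

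**Figure D5:**
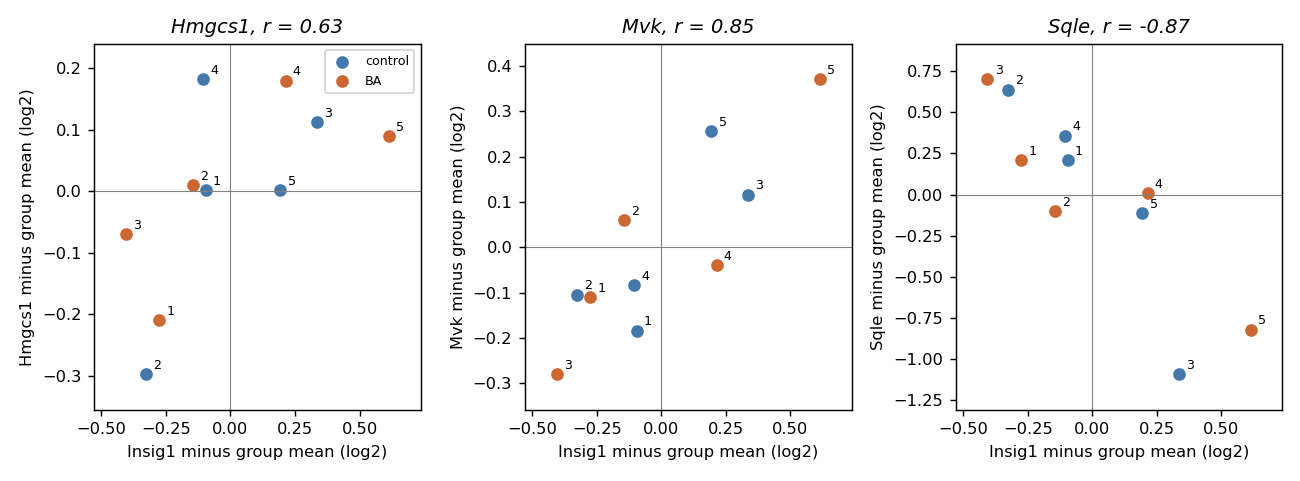
Deviation from the group mean (log2) of Hmgcs1, Mvk and Sqle against that of Insig1, with 1 numbered point per mouse, control blue and BA orange. Hmgcs1 and Mvk lie along rising clouds (r = 0.63 and 0.85) and Sqle along a falling one (r = -0.87), with control replicate 3 and BA replicate 5 at its lower end.

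Other genes of the pathway were read from 4 lists with 46 entries, 38 of them measured. None passed the adjusted threshold, and at an unadjusted p under 0.05 there were 7 higher and 2 lower (18.4% and 5.26%), against 4.13% and 5.27% of all genes tested. All 12 measured fatty acid synthesis and desaturation genes, known as SREBP1 targets, had the higher mean in BA cells (median difference 0.43), 4 of them at an unadjusted p under 0.05. Of the 12, 10 lay above the median level, where 49.8% of all genes had the higher mean and 6.96% were higher at that p. Their mean level ran from 6.86 to 7.21 in control and from 7.33 to 7.66 in BA arrays. The stearoyl-CoA desaturase Scd1 averaged 9.31 ± 0.33 and 9.94 ± 0.30 (SD, n = 5 each), a difference of 0.62 ± 0.19. The delta-6 desaturase Fads2 differed by 1.01 ± 0.34 and the elongase Elovl6 by 1.02 ± 0.35 (SE; adjusted p = 0.452, 0.477 and 0.482 for the 3 genes, limma).

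Of 15 sterol handling genes, 7 had the higher mean and 8 the lower (median -0.03). Of all genes tested 37.9% had the higher mean (49.8% of those above the median level). Cyp7b1, an oxysterol hydroxylase, differed by 0.83 ± 0.24, the lipoprotein receptor gene Vldlr by 0.76 ± 0.27 and Nr1h3 by -0.24 ± 0.10 (SE). The 5 measured genes of the rest of synthesis and sterol control all had a higher BA mean, against the same shares of all genes. Their median was 0.17, with no unadjusted p under 0.05. Lbr, a lamin B receptor with the same C14-reductase activity as Tm7sf2, differed by 0.46 ± 0.33, Rdh11 by 0.17 ± 0.17 and Mbtps1, the protease that first cuts SREBPs, by 0.17 ± 0.32. Among 6 genes that use prenyl diphosphates, Pdss2, of coenzyme Q synthesis, differed by 0.41 ± 0.13, and the farnesyltransferase subunits Fntb and Fnta by -0.28 ± 0.10 and 0.40 ± 0.23.

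The sorted cells carried markers of several types. Osteoblast lineage markers averaged 9.85 to 10.8 in control and 9.64 to 10.5 in BA arrays over 4 of 7 listed genes. Of these 4, Col1a1 differed by -1.25 ± 0.34 (SE; unadjusted p = 0.00386, adjusted p = 0.399, limma), Alpl by 0.47 ± 0.27, Sp7 by 0.03 ± 0.43 and Ibsp by -0.01 ± 0.08. Chondrocyte markers averaged 10.9 to 11.3 and 11.0 to 11.4 over 5 of 5. Pan-haematopoietic markers (7 of 7) averaged 6.31 to 7.24 in control and 6.86 to 7.24 in BA replicates 1 to 4, but 9.53 in BA replicate 5. Macrophage markers (7 of 7) averaged 5.55 to 6.02 and 5.61 to 6.72, and neutrophil markers (7 of 7) 7.35 to 9.53 and 8.22 to 10.5. Endothelial and skeletal muscle markers averaged 4.89 to 5.43 and 6.48 to 6.92 in control and 4.89 to 5.09 and 6.40 to 6.79 in BA arrays. Adipogenic stroma markers (5 of 5) averaged 7.77 to 9.68 in control and 6.67 to 8.01 in BA arrays, with control replicates 4 and 5 below BA replicate 1. All 5 had a lower BA mean, 3 of them at an unadjusted p under 0.05, and Cebpa differed by only -0.04. Of all genes tested 5.27% were lower at that p (4.39% of those above the median level). All 7 pan-haematopoietic and all 7 neutrophil markers had a higher BA mean, against 37.9% of all genes tested (49.8% of those above the median level). In each of these lists 1 gene was higher at an unadjusted p under 0.05, Arhgdib and S100a8. Of all genes tested 4.13% were higher at that p (6.96% of those above the median level). None of these markers passed the adjusted threshold. In bulk samples fewer cells of a type and less RNA per cell cannot be told apart.

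Without BA replicate 5, 7 members were higher and 1 lower at an unadjusted p under 0.05, against 3.6% and 3.39% of all genes tested. The differences of Hmgcs1 (0.62), Sqle (1.42), Cyp51 (0.80), Nsdhl (0.80), Hsd17b7 (0.80) and Sc5d (1.25) were then close to or above those with it. With the pan-haematopoietic mean as a covariate these 6 enzymes and Scap had an unadjusted p under 0.05, while Insig1 (0.26), Insig2 (-0.38) and Abca1 (0.31) did not. There 3.29% of all genes tested were higher and 2.81% lower at that p. That mean was 9.53 on BA replicate 5 and 6.31 to 7.24 on every other array. The covariate fit is therefore not a separate check from leaving out BA replicate 5. With the adipogenic mean as a covariate, an alternative chosen after the data were seen, Hmgcs1 (0.45), Sqle (1.68), Nsdhl (1.04) and Sc5d (1.46) remained under 0.05 of the 10 members, and Cyp51 (0.68), Hsd17b7 (0.33), Scap (0.25), Insig1 (0.10), Insig2 (-0.50) and Abca1 (0.23) did not. In that fit Mvk (-0.41) and Dhcr7 (0.37) came under 0.05. Of all genes tested, 2.87% were higher and 3.37% lower at that p. Xist, which marks female cells, was high on control replicates 4 and 5 and BA replicates 2, 4 and 5 (9.81 to 10.7) and low on the others (3.85 to 5.08), so both groups mixed the sexes, 2 of 5 against 3 of 5. With Xist as a covariate 8 members were under 0.05, without Insig1 (0.39) and Abca1 (0.42). They were 7 higher and 1 lower, against 3.91% and 4.39% of all genes tested. No member passed after adjustment in any of these fits.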

How the data were processed

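The deposited values are log2 expression for 35557 probe sets on 10 arrays, made by the authors with GCRMA per the submitters' processing notes. No GCRMA version is named in these sources, and values between 1.21 and 13.7 point to base 2. GCRMA corrects background by probe sequence, and whether differences of dim genes are compressed was not tested. No scanner files or detection calls were used, so signal over background was not judged; precision is limited by the number of arrays. Probe sets were named from the platform annotation: 21789 had 1 symbol, 1621 several and 12147 none. The brightest probe set with 1 symbol stood for each of 19938 genes.

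The 2 groups were set against each other in a two-sided limma fit (version 3.58.1, R 4.3.3; eBayes, no covariate), with Benjamini-Hochberg adjustment over all genes at a threshold of 0.05. The members and lists were chosen with earlier results of these data known. All measured members are described, those with an unadjusted p under 0.05, with the groups fully apart, or among 9 preset genes with every array's value, and of each list of other genes the 3 with the smallest p. The genes of printed promoters were chosen after values were seen. Correlations used exact permutation within groups. Alternatives covered the replicate block, normalization, a level filter, probe set averaging, variance settings, array weights, marker and Xist covariates and leaving out arrays. Scripts were tested on simulated data. The labels give no batch.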

Additional observations from a re-analysis of the deposited data

Results flagged for a closer look

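Among 56 groups of 5 arrays (28 genes in 2 groups), 3 held an array far from the other 4, where chance gives about 1 in 20. Cyp51 was at 6.49 on control replicate 3, against 7.78 to 7.93 on the other controls. Without that array the difference was 0.59. Dhcr7 was at 5.93 on control replicate 4, against 6.12 to 6.18 on the other controls. Insig2 was at 9.02 on BA replicate 2, against 8.48 to 8.63 on the other BA arrays, and without it the difference was -0.60.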

How the results depend on the processing

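No member passed the adjusted threshold under any alternative run, including a threshold of 0.10. The members with an unadjusted p under 0.05 numbered 10, and 7 to 12 when single arrays were left out. In those fits 3.13% to 5.02% of all genes tested were higher at that p and 3.39% to 7.58% lower. With quantile normalization there were 7 members (3.27% and 5.54% of all genes). With the adipogenic covariate there were 6 (2.87% and 3.37% of all genes), and the cause was not tested. Hmgcs1, Sqle, Nsdhl and Sc5d stayed under 0.05 in all 21 alternatives run for each of them. Of the same number, Cyp51 and Scap did so in 20 each, Insig2 in 19, Hsd17b7 in 14, and Insig1 and Abca1 in 8 each. The median difference of the 18 enzymes was 0.27 to 0.45 and that of the 5 transport genes 0.32 to 0.50 without single arrays. Over all genes, 1 passed in the main analysis and 0 with the replicate block, the level filter, the pan-haematopoietic covariate or the plain test, 2 with the Xist covariate, and 0 to 13 without single arrays (13 without BA replicate 4; 0 on leaving out control 2, control 5, BA 3 or BA 5; 2 on leaving out control 4 or BA 1). The labels do not say whether equal replicate numbers pair mice. Deviations of equally numbered arrays correlated at -0.10 to 0.11, and 2 of 5 controls matched their own number best. So few pairs cannot decide whether the mice were paired. With the replicate block 11 members were under 0.05, 9 of them among the 10. Those 11 were 10 higher and 1 lower, against 4.62% and 3.75% of all genes tested. The enzymes related to Insig1 numbered 1, and 2 with quantile normalization, centring or the level filter, and 0 to 2 without single arrays (0 without BA replicate 5; 2 without BA replicate 2 or 4).

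Of 809 gene differences under alternatives, 23 changed sign. No named gene passed the adjusted threshold in any of them, so the threshold itself says nothing about stability. Abcg1 was 0.0134 with quantile normalization, 0.018 with centring, 0.0866 and 0.062 with the pan-haematopoietic and adipogenic covariates, 0.0225 without control replicate 5 and BA replicate 5 together, and -0.0515 to 0.051 without single arrays. Srebf1 was -0.0006 with quantile normalization, -0.00877 with the adipogenic covariate and -0.047 to 0.0605 without single arrays. Pmvk was 0.00174 with array weights, 0.175 without both replicates 5 and -0.279 to 0.1785 without single arrays. With the adipogenic covariate Ebp was -0.622 and Npc1 0.149. Tm7sf2 was 0.0125 without both replicates 5. Without single arrays Npc1 ran from -0.28 to 0.0075, Fdft1 from -0.185 to 0.5475, Fdps from -0.071 to 0.354 and Mbtps1 from -0.051 to 0.4015. The cause of these changes was not tested. Only 5 mice per group limit all of these values.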
